A study of Saccharomyces cerevisiae with 4 samples.

Results

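The nucleoporin genes, which encode the building blocks of the nuclear pore complex, were followed in budding yeast (Saccharomyces cerevisiae) that carries a mutation in the SUMO protease gene ULP1. The 33 genes were chosen by name (the NUP and POM genes with NSP1, NIC96, NDC1, ASM4, SEH1, SEC13, GLE1, GLE2, MLP1 and MLP2), and all 33 were found among the 7126 features of the deposited count table. Polyadenylated RNA was sequenced from 2 libraries of a strain with wild-type ULP1 and 2 libraries of a strain with the ulp1-I615N allele, all from cells in mid-log growth in YPD, a rich medium, at 30 °C. Both strains are MATa and share a mutant leu2 allele and ura3-52, together with trp1-289, ade2-delta, ade3-delta and lys1::kanMX4, so the labelled difference between them is the ULP1 allele. The labels do not say whether the 2 libraries of a group came from separate cultures, so p-values speak only for the spread among the 4 libraries measured, part of which may be technical.

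The nuclear pore complex is the channel through which proteins and RNA pass the nuclear envelope. Stacked scaffold rings (an outer ring built of the Nup84 complex and an inner ring) are held in the membrane by a ring of transmembrane proteins. Nucleoporins with phenylalanine-glycine (FG) repeats fill the channel and bind transport receptors, filaments on the cytoplasmic face remodel exported messenger RNA, and a basket extends into the nucleus. Ulp1, which matures the SUMO precursor and removes SUMO from other proteins, is held at the pore, and in yeast the basket proteins Mlp1, Mlp2 and Nup60, the Nup84 complex and several karyopherins are known to take part in holding it there.

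Wild-type replicates 1 and 2 had total counts of 15448419 and 19346393, and the mutant replicates had 13244131 and 26723470. Of the 7126 features, 6139 genes passed the filter on low counts and were tested, and all 33 nucleoporin genes were among them. The a-type receptor gene STE2 stood at 415 to 481 CPM (the usual depth-normalised counts, here with TMM factors) and the alpha-type receptor gene STE3 at 3.75 to 6.07 CPM, as the label MATa says, though STE2 fell (-0.18, edgeR adjusted p = 0.0303) and STE3 rose (0.59, adjusted p = 0.0332). Of the other a-type markers, MFA1 (0.11 on the log2 scale), MFA2 (0.20) and BAR1 (0.10) were higher and STE6 (-0.12) was lower. The alpha-type markers MF(ALPHA)1 (0.99, at 0.27 to 0.87 CPM) and MF(ALPHA)2 (0.29) were higher. None of these had an edgeR adjusted p under 0.05. ADE2 and ADE3, which the labels give as deleted, nevertheless had counts in all 4 libraries (3116 to 7104 and 1368 to 3250), while LYS1 had 4 or 5. In bulk RNA, fewer cells with a transcript and less of it in each cell cannot be told apart. Chromosome X genes held 9.13% and 9.16% of the counts of mutant replicates 1 and 2, against 5.58% in both wild-type libraries, and with a single mutant strain the raised chromosome and the ULP1 allele cannot be told apart.

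ULP1 itself was at 74.4 and 66.8 CPM in wild-type replicates 1 and 2 and at 79.7 and 74.4 CPM in mutant replicates 1 and 2. The groups overlapped, and the log2 fold change of 0.12 ± 0.08 (SE) was not called by edgeR's quasi-likelihood test (Benjamini-Hochberg adjusted p = 0.193), although with library totals alone it was (0.26, adjusted p = 0.0182). The level of a transcript does not check a point mutation. The mutated residue, I615N, is near the end of the 622-codon reading frame. The reference sequence around it, the last 54 bases of the ULP1 coding sequence, is shown so that the position can be seen; it lies at chrXVI:512313-512366 on the minus strand (sacCer3), in the single exon of the gene, and the codon of the changed residue is in capitals.
ULP1: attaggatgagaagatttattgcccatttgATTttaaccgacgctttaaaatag

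Nucleoporin transcripts divided by chromosome. The 4 genes on chromosome X (NUP82, NUP85, NUP192 and NSP1) rose by 40.4% to 53.3% in the mutant, and of the 29 on other chromosomes 12 fell, by 10.3% to 22.4%, and 0 rose. The other 17 were not called. At an unadjusted p under 0.05 in edgeR, 1 of the 29 (POM33) was higher, and DESeq2 and limma-voom called 0 of them higher. Over all genes tested, 26.4% rose and 24.3% fell. On chromosome X 90.6% rose, and on the other chromosomes 22.3% rose and 25.9% fell, against 41.4% of the 29 nucleoporin genes there that fell. Calls are adjusted p under 0.05 in edgeR's quasi-likelihood test, with Benjamini-Hochberg adjustment over all 6139 genes.

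Outside chromosome X the median log2 fold change of the nucleoporin genes was -0.15, with a range of -0.37 to 0.16, against -0.01 over all 5766 genes tested there. Both mutant libraries were below both wild-type libraries for 22 of the 29 genes (75.9%), an arrangement seen in 38.2% of all genes outside chromosome X. The opposite held for 1 of them, POM33, and for 34.4% of all genes outside chromosome X. With library totals alone as the scale, the median of all genes tested moved from 0.01 to 0.14, that of the 29 genes was -0.01, and 3 of the 29 fell (10.3%, against 15.0% of all genes outside chromosome X) and 2 rose. The 29 genes' median minus that of all genes outside chromosome X was -0.13 on the log2 scale with either scaling, and 26 of the 29 were below the all-gene median with both. The share that fell was thus not above that of all genes under every setting.

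Other settings moved the count as well. With DESeq2 8 of the 29 fell (27.6%, against 22.7% of all genes outside chromosome X), and with TMM factors computed without chromosome X also 8 (27.6% against 23.5%). Without wild-type replicate 2 the count was 7 (24.1% against 24.3%), and without wild-type replicate 1 it was 17 (58.6% against 26.2%). It was 8 without mutant replicate 1 (27.6% against 22.2%) and 10 without mutant replicate 2 (34.5% against 21.5%). NUP145, NUP100 and MLP2 kept their calls in all 12 alternatives. The calls of the other 9 genes that fell ended with library totals alone, at adjusted p from 0.0627 for GLE1 to 0.783 for MLP1. Those of NUP133, NIC96, NUP49 and MLP1 also ended with TMM factors computed without chromosome X (adjusted p = 0.0797, 0.0793, 0.102 and 0.0928). Thinning to the smallest total ended those of NUP133 (0.0543) and NIC96 (0.0512), and leaving out the filter on low counts that of NUP49 (0.0515).

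**Figure D1:**
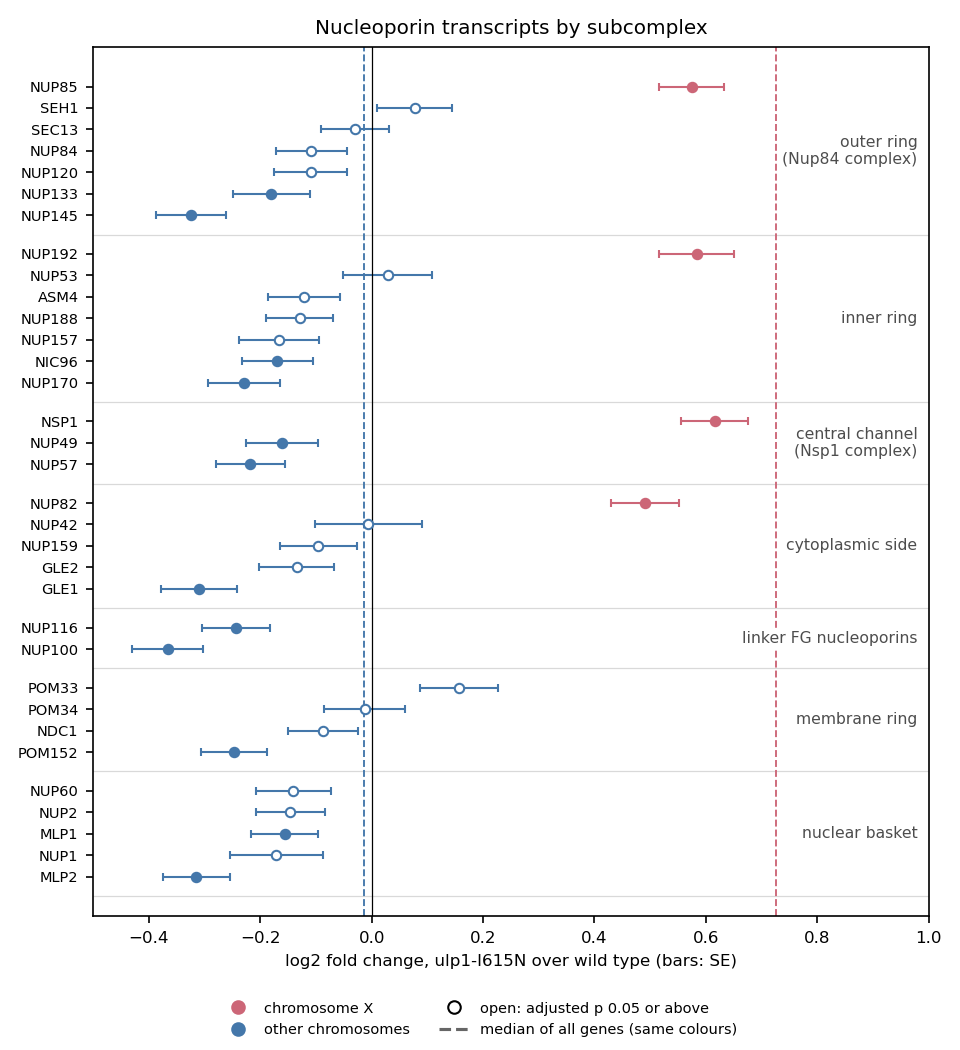
Log2 fold change (ulp1-I615N over wild type) of each of the 33 nucleoporin genes, grouped by subcomplex; points are fitted values, bars are the SE, filled points have an adjusted p under 0.05, and dashed lines are the medians of all genes on chromosome X (red) and elsewhere (blue). The 4 genes of chromosome X lie between 0.49 and 0.62, and the other 29 between -0.37 and 0.16 with TMM scaling; with library totals the latter shift upward and their median is -0.01.

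The 33 genes together took 0.493% and 0.497% of the counts of the wild-type libraries, against 0.533% and 0.521% for the mutant ones (replicates 1 and 2). The 4 genes of chromosome X supplied the higher share, going from 0.0650% and 0.0648% to 0.108% and 0.105%. The other 29 held 0.428% and 0.432% in wild type, against 0.425% and 0.416%.

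The 4 nucleoporin genes of chromosome X belong to 4 different subcomplexes, so each of those subcomplexes held 1 risen transcript among others that fell or were not called. NSP1 (YJL041W), the FG nucleoporin that forms the central channel with Nup49 and Nup57, was at 209 and 204 CPM in wild-type replicates 1 and 2 and at 316 CPM in both mutant libraries. Its log2 fold change was 0.62 ± 0.06 (SE; edgeR adjusted p = 4.26e-07). NUP192 (YJL039C), a large inner ring scaffold protein, went from 172 and 196 CPM to 275 and 276 CPM (0.58 ± 0.07, adjusted p = 2.74e-06). The groups did not overlap in either gene, nor in the other two, as in 95.7% of chromosome X genes, and the wild-type libraries of NUP192 were the more widely spaced. NUP85 (YJR042W), a scaffold subunit of the Nup84 complex, stood at 172 and 175 CPM in wild type and 259 and 257 CPM in the mutant (0.57 ± 0.06, adjusted p = 6.96e-07). NUP82 (YJL061W), which anchors the cytoplasmic filament proteins, was at 116 CPM in both wild-type libraries and at 167 and 160.0 CPM in the mutant (0.49 ± 0.06, adjusted p = 6.06e-06). All 4 calls were kept in each of the 12 alternative analyses, omissions of a library included.

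Relative to their chromosome, the 4 genes were on the low side. The median log2 fold change of the 373 tested genes of chromosome X was 0.73, above each of the 4. NUP82 had 22.8% of the chromosome's genes below it, NUP85 28.4%, NUP192 30.0% and NSP1 35.4%. When the chromosome median was taken as the reference in the edgeR test, NUP82 was at -0.24 on the log2 scale (adjusted p = 0.00466) and NUP85 at -0.15 (adjusted p = 0.0433), in a setting where 24.1% of chromosome X genes were called lower and 26.5% higher. NUP192 (-0.14, adjusted p = 0.0960) and NSP1 (-0.11, adjusted p = 0.149) were not called. The NUP85 call was lost with DESeq2 (adjusted p = 0.131). In edgeR it was lost with library totals alone (adjusted p = 0.0586), without the filter on low counts (0.0549) and with thinning (0.0651). It was also lost without mutant replicate 1 (-0.16), mutant replicate 2 (-0.13) or wild-type replicate 2 (-0.14). The NUP82 call was lost without mutant replicate 2 (-0.20). NUP192 was called without wild-type replicate 1 (-0.24, adjusted p = 0.0024).

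The chromosome's genes around the nucleoporin genes had larger medians. Among the 10 tested genes on each side, the median log2 fold change was 0.84 near NUP82, 0.88 near NSP1, 0.93 near NUP192 and 0.76 near NUP85. Of these 20 neighbours, 2 were below NUP82, 4 below NSP1, 2 below NUP192 and 3 below NUP85. NSP1 (chrX:365784-368373, plus strand) and NUP192 (chrX:368748-373799, minus strand) are neighbours that converge, with 374 bases and 0 listed features between them, so their values share a place on the chromosome. NSP1 has a 118-base intron after a first exon of 1 base. Of the 50-base windows of its coding sequence, 6.52% occur more than once in the genome, with copies inside NSP1 itself included. Fragments that mapped to several places would not have been counted.

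**Figure D2:**
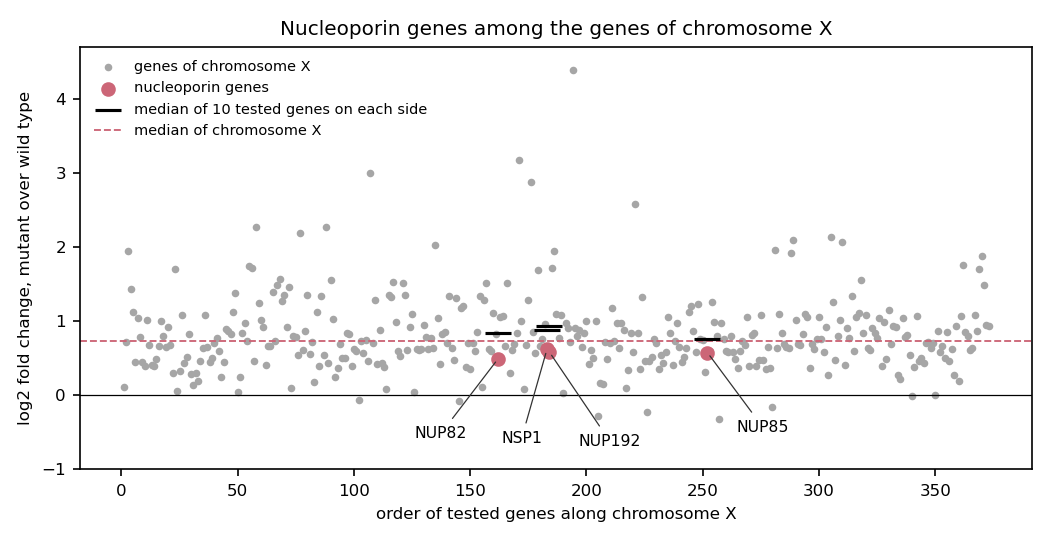
Log2 fold change (mutant over wild type) of the tested genes of chromosome X in their order along it; grey points are genes, red points the 4 nucleoporin genes, black bars the median of the 10 tested genes on each side, and the dashed line is the chromosome median of 0.73. The 4 nucleoporin genes lie at 0.49 to 0.62, under the dashed line and under the bars of their neighbours.

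By subcomplex, the counts outside chromosome X were 2 of 6 genes in the outer ring, 2 of 6 in the inner ring, 2 of 2 in the central channel, 1 of 4 on the cytoplasmic side, 2 of 2 among the linker nucleoporins, 1 of 4 in the membrane ring and 2 of 5 in the basket. They are small and are to be read against the 25.9% of all genes outside chromosome X that fell, near which most of them lie.

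In the outer ring, made of the Y-shaped Nup84 complex, 2 of the 6 genes outside chromosome X fell. NUP145 (YGL092W), whose precursor protein is cut into an FG part and a scaffold part, was at 208 and 224 CPM in wild-type replicates 1 and 2 and at 176 and 169.6 CPM in the mutant replicates. The groups did not overlap, and the gene fell by 0.32 ± 0.06 on the log2 scale (edgeR adjusted p = 0.000422), a call kept in every alternative. NUP133 (YKR082W), a subunit of the stem of the Y, went from 141 and 149 CPM to 136 and 121 CPM (-0.18 ± 0.07, adjusted p = 0.0388). That call ended without mutant replicate 2 (adjusted p = 0.442), without wild-type replicate 2 (0.113) and with DESeq2 (0.0926). NUP84 (YDL116W), another stem subunit, was at 104 and 108 CPM in wild type and 97.0 and 99.2 CPM in the mutant (-0.11, adjusted p = 0.178), and NUP120 (YKL057C), of a short arm, at 133 and 146 CPM against 132 and 127 CPM (-0.11, adjusted p = 0.178). Neither of the last pair was called, though for NUP120 the adjusted p was 0.0265 without wild-type replicate 1. SEC13 (YLR208W) and SEH1 (YGL100W), beta-propeller proteins that also serve outside the pore, had log2 fold changes of -0.03 and 0.08 (adjusted p = 0.711 and 0.363), and SEH1 was called higher with library totals alone (adjusted p = 0.0231).

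In the inner ring, 2 of the 6 genes outside chromosome X fell. NUP170 (YBL079W), a membrane-side scaffold protein, was at 201 and 222 CPM in wild type and at 177 and 183 CPM in the mutant, with no overlap. It fell by 0.23 ± 0.06 on the log2 scale (edgeR adjusted p = 0.00734), a call that ended without wild-type replicate 2 (adjusted p = 0.0575). NIC96 (YFR002W), the linker that ties the channel proteins to the scaffold, went from 187 and 203 CPM to 179 and 169 CPM (-0.17 ± 0.06, adjusted p = 0.0366). It was not called without mutant replicate 2 (0.269), without wild-type replicate 2 (0.199) or with DESeq2 (0.0813). NUP157 (YER105C), a relative of NUP170, was at 150.2 and 174 CPM in wild type and 142 and 147 CPM in the mutant, so the wild-type libraries were farther apart than the group means. It was not called (-0.17, adjusted p = 0.0665) and was called without wild-type replicate 1 (adjusted p = 0.000272). The large scaffold gene NUP188 (YML103C) and the membrane-binding linkers NUP53 (YMR153W) and ASM4 (YDL088C) had log2 fold changes of -0.13, 0.03 and -0.12 (adjusted p = 0.0853, 0.792 and 0.132).

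The central channel trimer of Nsp1, Nup49 and Nup57 held 1 gene that rose, NSP1, and 2 that fell, its partners. NUP57 (YGR119C) was at 172 and 175 CPM in wild type and 143 and 155 CPM in the mutant, and fell by 0.22 ± 0.06 on the log2 scale (edgeR adjusted p = 0.00827). NUP49 (YGL172W) was at 97.6 and 101 CPM in wild type and 89.2 and 88.6 CPM in the mutant (-0.16 ± 0.07, adjusted p = 0.0493). The NUP57 call ended without mutant replicate 1 (0.119), and that of NUP49 without either mutant library (0.134 and 0.181), without wild-type replicate 2 (0.175) and with DESeq2 (0.128).

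On the cytoplasmic side, where Gle1 and Nup42 stimulate the helicase that releases exported messenger RNA, 1 of the 4 genes outside chromosome X fell. GLE1 (YDL207W) was at 113 and 103 CPM in wild type and 88.4 and 85.5 CPM in the mutant. The groups did not overlap, and it fell by 0.31 ± 0.07 on the log2 scale (edgeR adjusted p = 0.00135), a call kept without any single library and ended by library totals alone (adjusted p = 0.0627). NUP159 (YIL115C), an FG filament protein that docks the helicase, was at 173 and 195 CPM in wild type and 178 and 166 CPM in the mutant (-0.10, adjusted p = 0.270), and was called without wild-type replicate 1 (adjusted p = 0.0128). NUP42 (YDR192C), the lowest of all 33 per kilobase, was at 26.6 to 27.8 CPM in the 4 libraries (-0.01, adjusted p = 0.967), and GLE2 (YER107C), a partner of Nup116, was not called (-0.13, adjusted p = 0.110). NUP159, NUP42, GLE2, NUP53 and NDC1 (YML031W) each overlap a feature on the other strand, and counting did not use strand, so their values are uncertain. Of these 5 genes 0 were called by edgeR (0 at an unadjusted p under 0.05, and 0 by DESeq2 or limma-voom). The 24 others outside chromosome X hold the 12 that fell. Of all 5766 genes tested outside chromosome X, 2990 were not called, and the share among overlapping genes was not computed.

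The linker nucleoporins NUP100 (YKL068W) and NUP116 (YMR047C), near relatives whose FG repeats, many of the GLFG kind, bind transport receptors, both fell. NUP100 was at 204.7 and 225 CPM in wild type and 165 and 168 CPM in the mutant. It had the lowest value of the 33 genes, a log2 fold change of -0.37 ± 0.06 (edgeR adjusted p = 0.000173), and the call was kept in each alternative. NUP116 was at 239.6 and 245 CPM in wild type and 197 and 212 CPM in the mutant (-0.24 ± 0.06, adjusted p = 0.0035). Without mutant replicate 1 the adjusted p of NUP116 was 0.0653.

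Their repeats, and those of NSP1 and NUP145 for comparison, can be read from the coding sequences. An FG repeat was counted as an in-frame TTTGGN or TTCGGN codon pair, and by that count NUP116 has 47, NUP100 45, NSP1 33 and NUP145 15. Codon pairs preceded by a glycine and leucine (GLFG) numbered 20 in NUP116, 11 in NUP100, 7 in NUP145 and 0 in NSP1, which has 19 of the FxFG kind. The stretches of 120 coding bases that hold the most pairs show how densely they are set. They are the coding strand read 5′ to 3′ from the RefSeq genome R64, whose coordinates for these genes match the deposited sacCer3 ones, and FG codon pairs are in capitals: NUP100 at chrXI:310199-310318 (plus strand), NUP116 at chrXIII:366583-366702 (minus strand), NSP1 at chrX:366007-366126 (plus strand) and NUP145 at chrVII:338413-338532 (plus strand).
NUP100: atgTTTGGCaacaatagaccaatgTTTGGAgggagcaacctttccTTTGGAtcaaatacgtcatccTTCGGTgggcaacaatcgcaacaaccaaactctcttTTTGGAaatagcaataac
NUP116: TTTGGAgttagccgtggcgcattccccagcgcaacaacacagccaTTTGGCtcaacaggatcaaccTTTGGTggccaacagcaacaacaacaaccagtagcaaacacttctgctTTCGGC
NSP1: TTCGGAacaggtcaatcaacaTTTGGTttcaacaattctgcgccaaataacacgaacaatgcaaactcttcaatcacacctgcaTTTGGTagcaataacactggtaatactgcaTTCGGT
NUP145: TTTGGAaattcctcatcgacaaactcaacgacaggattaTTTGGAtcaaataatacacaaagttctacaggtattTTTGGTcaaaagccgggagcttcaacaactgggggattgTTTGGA

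FG nucleoporins were also set beside the rest. Taking as FG nucleoporins the 10 genes with at least 10 FG codon pairs, a limit chosen after the codon counts were seen, 5 of the 9 outside chromosome X fell and their median log2 fold change was -0.17. Of the 20 others outside chromosome X, 7 fell and the median was -0.13. Over all genes tested outside chromosome X, 25.9% fell and the median was -0.01. The group sizes allow description only, and with library totals alone fewer genes of either kind fell.

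Of the membrane ring, which anchors the pore in the envelope, 1 of 4 genes fell. POM152 (YMR129W) was at 176 and 180.3 CPM in wild type and 151 and 149.5 CPM in the mutant, without overlap, and fell by 0.25 ± 0.06 on the log2 scale (edgeR adjusted p = 0.0025). The call was kept without any single library and ended with library totals alone (adjusted p = 0.153). POM33 (YLL023C), a membrane protein of pore assembly, was the only one of the 29 genes outside chromosome X whose mutant libraries (75.6 and 74.8 CPM) were both above its wild-type libraries (68.0 and 66.9 CPM), at 0.16 ± 0.07 (adjusted p = 0.0742). It was called higher with TMM factors computed without chromosome X (adjusted p = 0.0362) and with library totals (0.00517). POM34 (YLR018C), a partner of Pom152, and NDC1, shared with the spindle pole body, had log2 fold changes of -0.01 and -0.09 (adjusted p = 0.907 and 0.270).

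In the nuclear basket 2 of 5 genes fell. MLP2 (YIL149C) was at 212 and 205 CPM in wild type and 171 and 164 CPM in the mutant, and fell by 0.32 ± 0.06 on the log2 scale (edgeR adjusted p = 0.000402), a call kept in each alternative. Its longer relative MLP1 (YKR095W) was at 270.2 and 273 CPM in wild type and 249.8 and 238 CPM in the mutant (-0.16 ± 0.06, adjusted p = 0.0422). The MLP1 call ended without mutant replicate 1 (0.0751), mutant replicate 2 (0.308) or wild-type replicate 2 (0.0791), and with DESeq2 (0.0700). NUP60 (YAR002W), which attaches the basket to the pore, was at 146 and 142 CPM against 123 and 137 CPM (-0.14, adjusted p = 0.0931), and its adjusted p without mutant replicate 2 was 0.0348. NUP2 (YLR335W), a mobile FG nucleoporin that helps recycle importin alpha, had a log2 fold change of -0.15 (adjusted p = 0.0594), and NUP1 (YOR098C), a basket protein that binds karyopherins, one of -0.17 (adjusted p = 0.115). Without wild-type replicate 1 both were called (adjusted p = 0.0105 for NUP2 and 3.22e-05 for NUP1), and NUP1 also without mutant replicate 2 (0.0401). NUP1 was at 153 and 186 CPM in wild type, the widest gap between replicates among the 33 genes.

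Of the nucleoporins known to take part in holding Ulp1 at the pore, 7 from the basket and the outer ring were grouped. These were MLP1, MLP2, NUP60, NUP84, NUP120, NUP133 and NUP145, listed with earlier results of these data known. The group leaves out NUP85, SEC13 and SEH1 of the Nup84 complex. Of those left out, NUP85 rose (0.57), while SEC13 (-0.03) and SEH1 (0.08) were not called. All 7 grouped genes had both mutant libraries below both wild-type libraries (38.2% of all genes outside chromosome X). In the group of 7, 4 fell (25.9% of all genes outside chromosome X). The 7 genes' median log2 fold change was -0.16, with values from -0.32 to -0.11. Set beside the 29 genes outside chromosome X, whose median was -0.15, they did not stand out by median. Of the transport receptors known to bind Ulp1, which are named here for that role after their values were seen, PSE1 fell (-0.26, edgeR adjusted p = 0.00440), while SRP1 (-0.12, adjusted p = 0.177) and KAP95 (-0.14, adjusted p = 0.106) were not called.

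Related nucleoporins were compared within each library, as the log2 ratio of their levels per kilobase, which no scaling alters. NUP192 over NUP188, large inner ring relatives of which only NUP192 lies on chromosome X, gave wild-type ratios of 1.05 and 1.24 and mutant ratios of 1.88 and 1.87, a difference in mean log2 ratio of 0.72. The other 4 pairs moved far less. MLP1 over MLP2 went from a mean log2 ratio of 0.22 to 0.38, NUP53 over ASM4 from -0.53 to -0.37, NUP100 over NUP116 from 0.04 to -0.08, and NUP170 over NUP157 from 0.27 to 0.21. In all 5 pairs the 2 wild-type ratios did not overlap the 2 mutant ratios, but with 2 libraries a group the two-sided exact permutation test cannot go below p = 0.333, the value it gave for each. The share of other gene pairs with such separation was not computed. Among single genes outside chromosome X, the groups were separate and lower in 38.2%, and separate and higher in 34.4%.

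**Figure D3:**
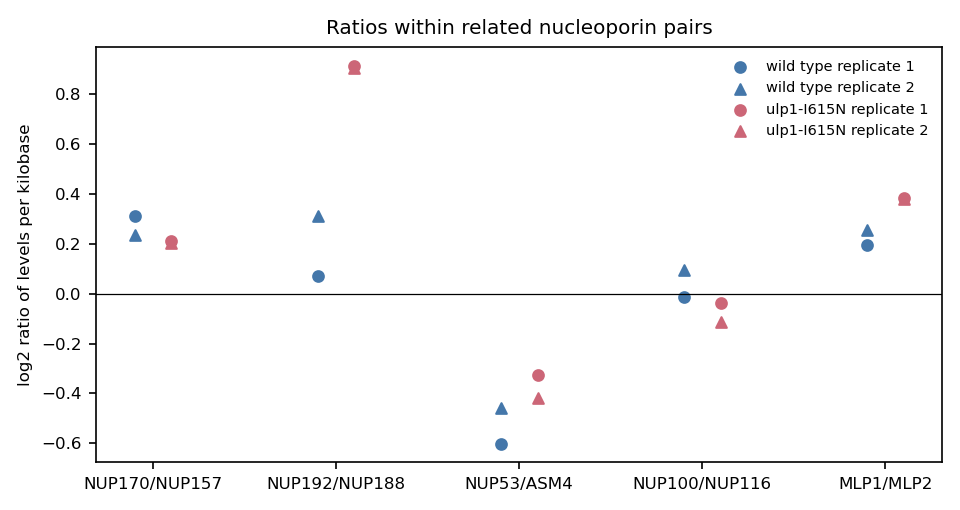
Log2 ratio of the levels per kilobase of 5 related nucleoporin pairs in each library; blue is wild type, red is ulp1-I615N, circles are replicate 1 and triangles replicate 2. NUP192/NUP188 is at 0.07 and 0.31 in the blue points, at 0.91 and 0.90 in the red, and the other pairs are closer together.

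Levels per kilobase, which allow genes to be compared, spanned a wide range. SEC13, which is also a coat protein of COPII vesicles, was the highest at a mean of 303 CPM per kilobase in wild type, followed by NUP2 at 121, NUP57 at 107 and SEH1 at 104. NUP42 was the lowest at 21.2, below NUP188 at 31.8. Along the wild-type order SEC13, NUP2, NUP60, ASM4, NUP188 and NUP42 were separate from their neighbours in both libraries. Most other neighbours overlapped, such as NUP57 with SEH1 and the run from NUP85 to NUP116. In the mutant, NSP1 went from rank 6 to rank 2 (83.4 to 128 CPM per kilobase), NUP85 from 9 to 3 (77.5 to 115), NUP82 from 19 to 9 (54.2 to 76.2) and NUP192 from 31 to 18 (36.4 to 54.6). NUP100 went from rank 11 to 16 and NUP145 from 18 to 22.

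**Figure D4:**
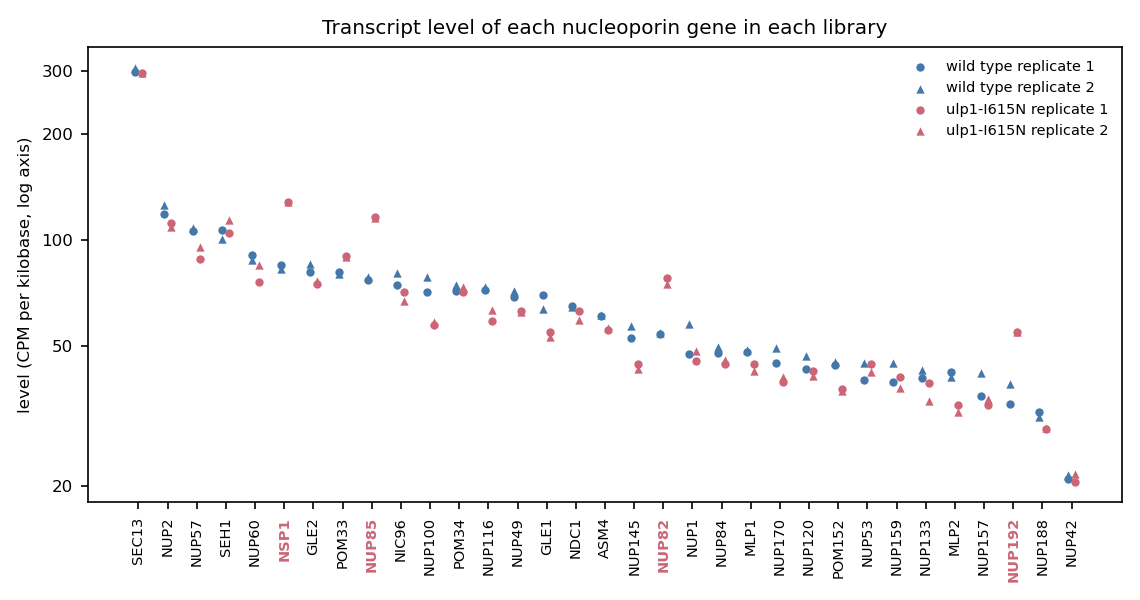
Level of each of the 33 nucleoporin genes in each library, in CPM per kilobase on a log axis, ordered by the wild-type mean; blue is wild type, red is ulp1-I615N, circles are replicate 1, triangles replicate 2, and names in red are on chromosome X. SEC13 is highest and NUP42 lowest, and the mutant points of NSP1, NUP85, NUP82 and NUP192 stand above their wild-type points.

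Gene length and the wild-type libraries moved with these values. Of the 12 nucleoporin genes outside chromosome X over 3000 bases, 7 fell, against 28.6% of all genes of that length there (median log2 fold change -0.18 against -0.04). Of the 10 between 1000 and 2000 bases 3 fell, close to the 28.4% of all such genes (-0.13 against -0.02). Of the 4 between 2000 and 3000 bases 2 fell, against 29.0% of all such genes (-0.16 against -0.04). Of the 3 under 1000 bases (SEC13, POM34 and POM33) edgeR called 0, as did DESeq2 and limma-voom, with 1 (POM33) at an unadjusted p under 0.05. Among all genes under 1000 bases outside chromosome X, 22.3% fell and 21.1% rose. The difference between wild-type replicates 2 and 1 was also larger in long genes, with a median log2 difference of 0.06 over all genes past 3000 bases and 0.09 over the 12 nucleoporin genes, against -0.02 over all genes under 1000 bases. The part of this replicate difference in the result was not tested.

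The promoters, taken as 250 bases before to 50 bases after the start codon, were searched on both strands for short motifs, since 12 of these genes fell. All 33 genes were matched by symbol to RefSeq. The Reb1 motif CGGGTAA was in 8 of 33 (24.2%; 7.09% of 5993 promoters), the PAC core GATGAG in 11 (33.3%; 20.4%), the stress response element core AGGGG in 1, that of NUP84 (3.03%; 21.7%), and TGAAAA, part of the RRPE element, in 21 (63.6%; 54.5%). The 8 genes with CGGGTAA were SEC13, NUP188, NUP157, NIC96, NUP53, GLE1, NUP116 and MLP2, all outside chromosome X, with a median log2 fold change of -0.17, against -0.14 in the 21 others outside that chromosome. These matches describe letters in this window only, and some lie past the start codon, such as AGGGG in NUP84 and GATGAG in GLE1. Of the 8 genes, NIC96, GLE1, NUP116 and MLP2 fell, while SEC13, NUP188, NUP157 and NUP53 were not called. Outside chromosome X, 12 of the 29 nucleoporin genes and 25.9% of all genes tested fell. A link between the motif and the fall was not tested. The promoters of NIC96 and of the uncalled genes are not shown. The promoters of the called genes GLE1, NUP116 and MLP2 show the motif; they are given 5′ to 3′ on the gene's strand from R64, with CGGGTAA or its reverse complement TTACCCG, and any GATGAG, in capitals: GLE1 at chrIV:87998-88297 (plus strand), NUP116 at chrXIII:366656-366955 (minus strand) and MLP2 at chrIX:68018-68317 (minus strand).
GLE1: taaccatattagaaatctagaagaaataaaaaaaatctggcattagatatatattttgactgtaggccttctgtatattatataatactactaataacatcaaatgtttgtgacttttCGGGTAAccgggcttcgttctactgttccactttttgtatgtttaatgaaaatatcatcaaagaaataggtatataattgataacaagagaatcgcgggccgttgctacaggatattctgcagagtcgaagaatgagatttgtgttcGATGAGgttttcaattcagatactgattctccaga
NUP116: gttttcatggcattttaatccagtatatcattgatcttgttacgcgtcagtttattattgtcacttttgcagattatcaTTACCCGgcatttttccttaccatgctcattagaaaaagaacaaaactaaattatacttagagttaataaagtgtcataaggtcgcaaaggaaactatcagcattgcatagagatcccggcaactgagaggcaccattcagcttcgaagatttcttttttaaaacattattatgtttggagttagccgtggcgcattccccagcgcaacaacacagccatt
MLP2: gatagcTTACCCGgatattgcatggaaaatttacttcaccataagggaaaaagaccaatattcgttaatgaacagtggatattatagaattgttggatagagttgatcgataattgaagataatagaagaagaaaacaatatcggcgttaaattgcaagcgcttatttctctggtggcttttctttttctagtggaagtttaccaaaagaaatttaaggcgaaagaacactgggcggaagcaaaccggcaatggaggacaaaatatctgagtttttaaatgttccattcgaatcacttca

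Genes that work with the pore were read beside the nucleoporins, and their counts stand against the 26.4% of all genes tested that rose and the 24.3% that fell. Of 22 genes of messenger RNA export 10 fell and 0 rose in edgeR (0 at an unadjusted p under 0.05, and 0 with DESeq2 or limma-voom), with a median log2 fold change of -0.19, and they included the export factors NPL3 (-0.38) and YRA1 (-0.37), as well as THP2 (-0.33) and HRB1 (-0.27), both not called without mutant replicate 2 (adjusted p = 0.0841 and 0.0624). Of 23 karyopherin and Ran cycle genes 10 fell and 3 rose, with a median of -0.14. KAP123, which imports ribosomal proteins, fell by 0.40, and GSP2, the second Ran gene, rose from 14.5 CPM in both wild-type libraries to 55.8 and 51.4 CPM in the mutant (1.89 ± 0.10, edgeR adjusted p = 4.87e-10). The other risers there were MOG1 (0.84) and NMD5 (0.50), both on chromosome X. GSP1, the other Ran gene, is named here beside GSP2 after its values were seen. It had the far higher level and fell, from 849 and 916 CPM in wild type to 703 and 751 CPM in the mutant (-0.28, edgeR adjusted p = 0.00688).

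Of 14 pore-associated and assembly factors 6 fell and 4 rose. BRL1, a membrane protein of pore assembly, fell by 0.54 and the reticulon RTN1 by 0.37, whereas CHM7 (0.68) and MPS3 (0.41) rose and lie on chromosome X. Outside chromosome X, 2 of the 12 genes of this list rose as well. Of 13 SUMO pathway genes 4 fell and 1 rose, among them the conjugating enzyme gene UBC9 (-0.34) and the ligase genes SIZ1 (-0.30) and MMS21 (-0.64), and CST9 (0.30) rose; the median was -0.09. MMS21, at 3.97 to 6.86 CPM, was not called without mutant replicate 2 (adjusted p = 0.155) or wild-type replicate 1 (0.0710), and CST9 was not without mutant replicate 2 (0.184) or wild-type replicate 2 (0.0996). Of 13 COPII coat and SEA complex genes, whose products share Sec13 or Seh1 with the pore, 3 fell (SAR1 at -0.25, SEC23 at -0.19 and SEC16 at -0.15) and IML1 on chromosome X rose (0.86). The shares of the SUMO and of the COPII and SEA genes that fell were near that of all genes. SEC23 and SEC16 were not called without either mutant library or wild-type replicate 2. With library totals alone as the scale, the number that fell was 2 in each of the pore-associated, karyopherin and export lists, 1 in the SUMO list and 0 in the COPII and SEA list. In that setting 866 of all 6139 genes tested fell, and 15.0% of those outside chromosome X. The shares that fell were thus not above that of all genes in every setting.

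**Figure D5:**
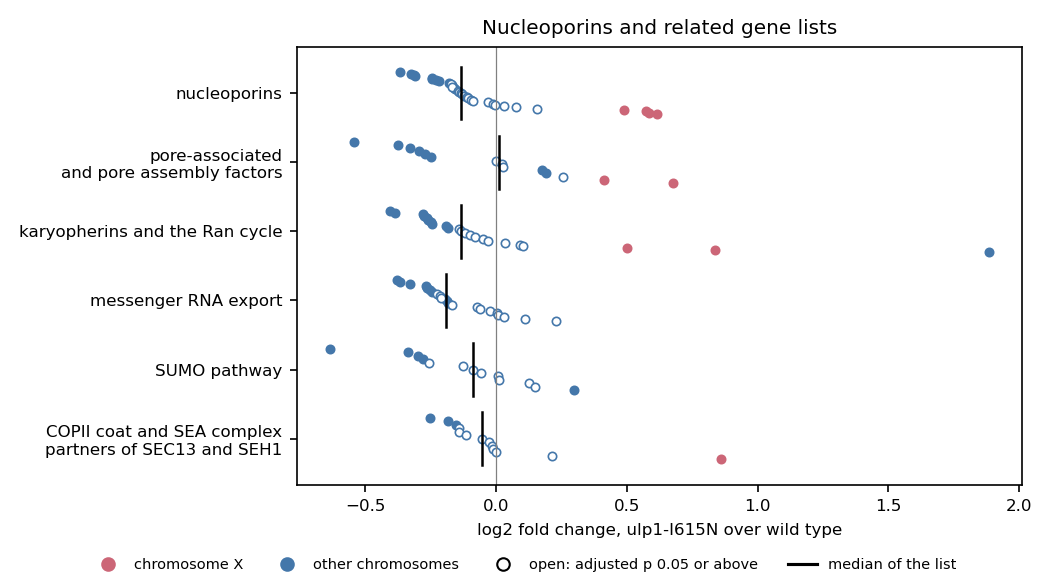
Log2 fold change (ulp1-I615N over wild type) of the nucleoporin genes and of 5 lists of related genes; each point is a gene, red on chromosome X and blue elsewhere, filled where the adjusted p is under 0.05, and black bars are list medians. The medians run from -0.19 for messenger RNA export to 0.01 for pore-associated factors with TMM scaling; with library totals the median of all genes tested is 0.14 in place of 0.01.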

How the data were processed

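Per the file headers, the authors made the deposited counts per gene with featureCounts 2.0.0 on read pairs, without the strand, multi-mapping or overlap options. Fragments over several places or genes were therefore not counted, and values of overlapping genes are uncertain. HISAT2 2.1.0 and the build sacCer3 are named in the submitters' processing notes, without the version of the annotation. Sample groups come from the titles. The main test was the quasi-likelihood test of edgeR 4.0.16 (R 4.3.3; robust, TMM scaling, minimum count 10, minimum total 15), mutant against wild type over 6139 genes, with p-values adjusted by Benjamini-Hochberg and called under 0.05. The chi-square per degree of freedom between replicates was 9.72 in wild type and 8.83 in the mutant, so they were kept separate. Gene symbols came from RefSeq (R64) by locus tag, and all 33 nucleoporin genes had the coordinates of the deposited table. The genes and lists were chosen with earlier results of these data known. Named genes are the 33, ULP1, mating type markers and, per list, at most 4 called genes by size of change; genes named outside this rule are said to be. Alternatives were other scalings, no filter, DESeq2 1.42.0, limma-voom (limma 3.58.1), thinning, a replicate block and each library left out. Protein sequences were not used here, so FG repeats were counted as codon pairs and pair identity was not computed.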

Additional observations from a re-analysis of the deposited data

How the results depend on the processing

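No called direction reversed, but 10 nucleoporin genes that were not called crossed 0 in some setting. With library totals alone these were NUP84 (0.0235), NUP120 (0.0238), SEC13 (0.102), NUP188 (0.00171), ASM4 (0.00957), NUP159 (0.0384), NUP42 (0.125), POM34 (0.119) and NDC1 (0.0452). TMM without chromosome X gave 0.0230 for NUP42 and 0.0164 for POM34, and thinning 0.0645 for NUP42. With 1 library left out, NUP53 ran from -0.0604 to 0.109, NUP42 from -0.0438 to 0.0243 and POM34 from -0.0540 to 0.0152. Library totals alone gave 3 nucleoporin genes lower, 866 of all genes lower and a nucleoporin median of -0.0025. They also gave 2 pore-associated, 2 karyopherin and 2 export genes lower, 1 SUMO and 0 COPII and SEA genes lower, and 1 export, 3 SUMO and 2 COPII and SEA genes higher. DESeq2 gave 3 pore-associated genes lower and 2 higher, and 0 SUMO genes higher. TMM without chromosome X gave 1 COPII and SEA gene lower, and thinning to the smallest total gave 1 export and 2 COPII and SEA genes higher. Relative to the chromosome X median, 1 nucleoporin gene was lower with DESeq2, library totals, no filter or thinning. Thinning gave 0.12 for MLP1 over MLP2. With 1 library left out, the lone library was assumed to vary like the other group, and the lower counts were 7 to 17 nucleoporin genes and 1240 to 1512 of all genes (1364 to 1539 higher). Lists then gave 3 to 6 pore-associated (fewest without mutant replicate 1), 7 to 12 karyopherin, 5 to 10 export (fewest without mutant replicate 2), 2 to 4 SUMO (fewest without wild-type replicate 1) and 1 to 5 COPII and SEA genes lower (1 without wild-type replicate 2 or either mutant library, 5 without wild-type replicate 1). They gave 2 to 4 pore-associated (2 without mutant replicate 2 or wild-type replicate 1), 0 to 1 SUMO (0 without mutant or wild-type replicate 2) and 1 to 2 COPII and SEA genes higher (2 without wild-type replicate 1). Relative to chromosome X, 0 to 3 nucleoporin genes were lower. The labels do not pair the replicates, whose same-number deviations correlated at 0.0807; the replicate block gave 16 nucleoporin genes lower and 4 higher, 2 COPII and SEA genes higher and 3 genes lower relative to chromosome X. The cause of these changes was not tested.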
